A study of Mus musculus with 4 samples.

Results

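The immunoglobulin heavy chain variable segments of the mouse were followed in the B cells and plasma cells of 4 lung libraries. All rows of the count matrices whose gene symbol starts with Ighv were taken, 185 of 32285 gene rows. By gene ID, all 185 matched the GENCODE vM21 annotation of the GRCm38 genome, which lists 113 of them as variable segment genes, 70 as pseudogenes and 2 as the class IG_LV_gene. They belong to 16 families, of which Ighv1 is the largest with 93 rows and Ighv5 follows with 22. The rows lie within 2437 kb of chromosome 12, chr12:113572927-116010093, and 183 of them are on the minus strand. Of the 113 segment genes, 94 had at least 1 UMI (unique molecular identifier, a tag that counts an original RNA molecule once) in a kept cell.

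Lungs came from Galt gene-edited mice (GAL, 2 libraries) and wild-type mice (WT, 2 libraries) and had been rinsed, minced and digested with collagenase IV and DNase I. Cells were barcoded in droplets with the SeekOne kit, per the labels. How Galt was edited, the strain, sex and age of the mice and the number of animals behind a library are not in the labels, so every p-value below measures only the spread between these 4 libraries. Galt, which encodes an enzyme of galactose breakdown, gave 723 and 524 UMIs in GAL replicates 1 and 2 and 575 and 545 in WT replicates 1 and 2, with an adjusted p of 0.952 by edgeR's quasi-likelihood test. UMIs from outside an edited stretch check nothing about the genotype. The deposited matrices held 56218178 to 62406681 UMIs per library, and 10757 to 13515 cells per library were kept at a median of 2361 to 3709 UMIs. Any pair of libraries shared 107 to 149 barcodes, 0.888% to 1.14% of the smaller one.

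A heavy chain gene is assembled in each developing B cell by joining 1 variable segment to a diversity and a joining segment in front of the constant region. The variable segment forms most of the antigen-binding surface of the heavy chain, and a B cell and its descendants go on using the same segment, also after the constant gene has been switched from Ighm to Igha or an Ighg gene. Plasma cells are the antibody-secreting end stage of this lineage and fill themselves with immunoglobulin RNA, and IgA-secreting plasma cells are typical of mucosal surfaces such as the airways.

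The ends of the 7 segments that led a library in plasma cells, by cells or by UMIs and with ties, are shown first, because they are the stretch that abuts the variable joint. Each starts with the 60 bases up to and including the conserved cysteine codon and is written 5′ to 3′ on the minus strand of GRCm38. The conserved tyrosine, its neighbour and the cysteine are in capitals. The bases after the capitals enter the antigen-binding loop.

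Ighv6-3: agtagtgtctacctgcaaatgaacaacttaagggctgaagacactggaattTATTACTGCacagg
Ighv3-6: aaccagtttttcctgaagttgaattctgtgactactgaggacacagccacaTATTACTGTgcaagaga
Ighv1-64: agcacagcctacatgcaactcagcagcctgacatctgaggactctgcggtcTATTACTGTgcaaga
Ighv1-76: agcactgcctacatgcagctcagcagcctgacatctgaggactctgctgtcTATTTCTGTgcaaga
Ighv1-80: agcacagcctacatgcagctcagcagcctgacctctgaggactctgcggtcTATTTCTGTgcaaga
Ighv1-50: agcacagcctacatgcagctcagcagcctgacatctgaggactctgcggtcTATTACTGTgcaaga
Ighv10-1: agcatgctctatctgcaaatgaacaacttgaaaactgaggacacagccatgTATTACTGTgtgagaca

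In that order they lie at chr12:114391712-114391776, chr12:114288152-114288219, chr12:115507545-115507610, chr12:115847881-115847946, chr12:115912344-115912409, chr12:115119748-115119813 and chr12:114479005-114479072, each in the last exon of its segment. Many segments have near copies, which bears on how well reads can be placed. Among 103 segment genes with a comparable window of 270 bases up to the cysteine codon, the nearest relative was a median of 95.6% identical, 62 had one at 95% or more, and 12 at 98% or more. Of the segments shown, Ighv1-50 differed from Ighv1-69 at 8 of the 270 bases, and Ighv10-1 from Ighv10-3 at 9, all in capitals below. The windows lie on the minus strand at chr12:115119754-115120023, chr12:115623167-115623436, chr12:114479013-114479282 and chr12:114523449-114523718.

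Ighv1-50: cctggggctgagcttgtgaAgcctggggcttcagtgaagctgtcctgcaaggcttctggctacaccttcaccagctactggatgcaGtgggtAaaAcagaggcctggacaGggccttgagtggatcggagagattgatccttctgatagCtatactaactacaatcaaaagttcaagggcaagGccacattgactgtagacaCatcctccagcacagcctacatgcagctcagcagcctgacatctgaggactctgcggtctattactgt
Ighv1-69: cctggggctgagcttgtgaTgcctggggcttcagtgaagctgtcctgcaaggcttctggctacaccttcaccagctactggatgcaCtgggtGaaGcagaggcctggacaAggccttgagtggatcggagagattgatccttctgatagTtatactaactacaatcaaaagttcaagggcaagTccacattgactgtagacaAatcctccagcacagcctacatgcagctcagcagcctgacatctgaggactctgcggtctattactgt
Ighv10-1: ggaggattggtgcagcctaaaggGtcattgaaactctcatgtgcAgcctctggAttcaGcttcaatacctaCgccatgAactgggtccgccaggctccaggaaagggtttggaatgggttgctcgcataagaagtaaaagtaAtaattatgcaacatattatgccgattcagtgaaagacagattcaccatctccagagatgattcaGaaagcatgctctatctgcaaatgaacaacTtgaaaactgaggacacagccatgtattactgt
Ighv10-3: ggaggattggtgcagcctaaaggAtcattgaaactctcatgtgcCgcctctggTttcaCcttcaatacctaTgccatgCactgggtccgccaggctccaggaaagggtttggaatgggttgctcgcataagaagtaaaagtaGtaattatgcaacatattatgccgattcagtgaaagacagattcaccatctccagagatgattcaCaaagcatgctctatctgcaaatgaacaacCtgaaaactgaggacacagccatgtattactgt

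Reads that fall between the capitals cannot tell these copies apart, so counts of near copies are uncertain to the extent that the counting dropped or split such reads, and mutated segments add to this.

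Cells were gated without any immunoglobulin gene. A B gate cell had UMIs of at least 2 of 4 B cell markers, among them Cd79a, Cd79b and Ms4a1, and a plasma gate cell of at least 3 of Jchain, Mzb1, Sdc1, Tnfrsf17, Prdm1 and Derl3, in both cases with more UMIs of these than of genes of other lineages. The B gate held 1124, 1405, 1185 and 2711 cells, given here and in all sets of 4 values below with both GAL libraries (replicates 1 and 2) before both WT libraries (replicates 1 and 2). The plasma gate held 51, 88, 39 and 13 cells, or 0.465%, 0.818%, 0.313% and 0.0962% of the kept cells. In the plasma gate the 8 plasma cell markers, 6 of them part of the rule, summed to 28753 to 56322 CPM (UMIs of the gene list scaled to a common total over the same cells) with all 8 detected in every library. The 13 cells of WT replicate 2 went against their label in part. Their median share of immunoglobulin constant UMIs was 1.33%, against 34.0%, 49.1% and 46.0% in the other libraries, and only 6 of them reached 5%. Both epithelial markers, Epcam and Sftpc, were detected in them at a sum of 18519 CPM, against 82.3 to 2636 in the plasma gates of the other libraries. Removal of likely doublets touched this gate unevenly, taking 3 of 54 (5.56%), 43 of 131 (32.8%), 33 of 72 (45.8%) and 37 of 50 (74.0%) of its cells, while it took 9.51% to 12.3% of all cells. The removed plasma gate cells had a median constant share of 18.6%, against 44.5% in the kept ones. Of the removed cells 101 of 116 reached 5%, and of the kept ones 168 of 191. Their median UMIs of the 4 B cell markers were 7, against 8 in the kept ones. Their median UMIs of genes of other lineages, which the gate itself limits, were 2 in both. By library the latter were 13, 3, 3 and 1 in removed cells and 2, 2, 2 and 1 in kept ones. The main plasma cell results are therefore given with and without the removed cells.

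Ighv RNA was scarce in all libraries and most abundant in GAL replicate 2. The kept cells held 824, 3275, 956 and 788 Ighv UMIs, or 15.3, 66.2, 18.96 and 16.5 CPM. GAL replicate 2 stood apart from the other 3, which lay close together, so the groups overlapped. In whole-lung values such as these, fewer cells of a type and less RNA per cell cannot be told apart. The B gate held 20.5%, 8.98%, 13.6% and 58.5% of these UMIs, and the plasma gate 27.9%, 51.4%, 45.5% and 16.5%. The remainder, 51.6%, 39.6%, 40.9% and 25.0%, lay in cells outside both gates, mostly as single UMIs: 425 UMIs in 414 cells of GAL replicate 1, for example.

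Within the B gate the family made up 59.8, 88.8, 57.0 and 86.7 CPM. Each group held a high and a low library, and the mean difference GAL minus WT, 0.000247% of UMIs, was smaller than the gap between replicates (exact two-sided permutation p = 0.667). With 2 libraries against 2, this test cannot give a p below 0.33. In the plasma gate it made up 0.0351%, 0.127%, 0.105% and 0.135% of UMIs, a mean difference of −0.0392% (exact permutation p = 0.667) with overlapping groups. With the cells removed by doublet score added back these shares were 0.0328%, 0.101%, 0.0728% and 0.0695%, and the difference shrank to −0.00412% (exact permutation p = 1). Without GAL replicate 1 it was 0.00688%, of the opposite sign. Variable segment UMIs were few beside those of the constant part of the same mRNAs, at 3.77, 9.31, 7.46 and 29.4 Ighv UMIs per 1000 heavy constant UMIs in the plasma gate. The highest of these values came from WT replicate 2, where 1 cell held 124 of the 130 Ighv UMIs.

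Detection per cell followed the gates. Of B gate cells, 13.5%, 16.9%, 9.28% and 14.9% had an Ighv UMI, at median depths of 2281, 2062, 1488 and 1778 UMIs. T gate cells, which do not make heavy chains and stand for the level of free RNA, had one in 3.24%, 8.33%, 1.99% and 0.976%, at median depths of 3426.5, 2877, 2120 and 2768. After every cell was thinned to 1000 UMIs the shares were 6.30%, 8.47%, 5.90% and 8.53% of B gate cells and 0.966%, 2.60%, 0.670% and 0.347% of T gate cells. Thinning left out 37, 53, 109 and 160 shallower B gate cells and 20, 24, 74 and 39 shallower T gate cells. The share was thus above that of T gate cells in all 4 libraries at equal depth, and the T gate share was highest in GAL replicate 2, the library with the most Ighv RNA. In the plasma gate 74.5%, 85.2%, 92.3% and 46.2% of cells had an Ighv UMI, at median depths of 12658, 15922, 10678 and 7072.

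**Figure D1:**
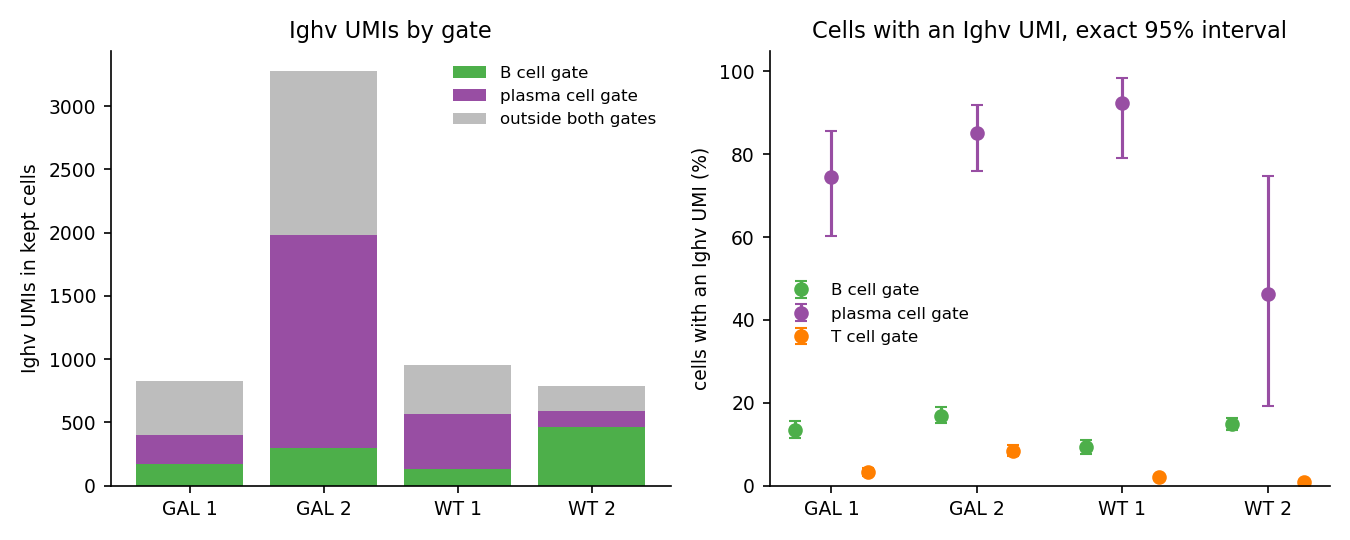
Left, Ighv UMIs in kept cells of each library, stacked by B gate, plasma gate and all other cells; GAL 2 reaches 3275 and the other libraries stay under 1000. Right, percent of cells of the B, plasma and T gates with an Ighv UMI, with exact 95% binomial intervals for counting error; B gate points lie at 9.28% to 16.9% and T gate points at 0.976% to 8.33%.

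Segment use in B gate cells was broad in every library. With 1 UMI or more, 151, 220, 105 and 393 cells could be given a segment (at least 70% of the cell's Ighv UMIs in 1 row), and they spread over 65, 67, 50 and 84 segments. The effective number of segments, an inverse Simpson index that counts equally used segments and rests on how many cells repeat a segment, was 59.9, 52.8, 59.3 and 56.2. The most used segment took 5.96% (Ighv6-3), 5.45% (Ighv1-26), 4.76% (Ighv1-15, Ighv5-4 and Ighv8-8, in a tie) and 4.58% (Ighv1-26) of these cells. No single segment dominated B gate cells at this threshold. T gate cells also hold single Ighv UMIs, and the part of free RNA in these assignments was not tested. The stricter threshold of 2 UMIs is the one used for comparisons.

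At 2 UMIs or more, 15, 20, 8 and 42 B gate cells had a segment. The leading segment held 2 of 15 cells (Ighv6-3, 13.3%), 2 of 20 (5 segments in a tie, 10%), 2 of 8 (Ighv1-47, 25.0%) and 4 of 42 (Ighv7-3, 9.52%). The effective number was 105, 38.0, 28.0 and 47.8, values that rest on a handful of cells that repeat a segment. GAL exceeded WT by 33.6 on average (exact two-sided permutation p = 0.667), less than the distance between the GAL replicates. At 1 UMI the difference turned to −1.41. The top share was lower in GAL by a mean difference of −5.60 percentage points (exact permutation p = 1) and turned to 1.04 at 1 UMI.

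The Ighv1 family, known as J558 and the largest of the mouse locus, supplied 57.6%, 58.2%, 53.3% and 52.4% of B gate cells at 1 UMI or more. Both GAL values lay above both WT values there, by 5.02 points on average, with the smallest p that 4 libraries allow (exact two-sided permutation p = 0.33). At 2 UMIs or more the shares were 46.7%, 60%, 62.5% and 59.5%, and the difference was −7.68 points (exact permutation p = 0.667). The sign therefore depended on the threshold. Ighv5 came next on average at 1 UMI, with 4.64%, 11.4%, 12.4% and 8.14% of cells, and Ighv2 followed with 3.97%, 8.64%, 2.86% and 5.85%. Families Ighv12, Ighv15 and Ighv16 were each seen in at most 0.455% of these cells.

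B gate UMIs came from all stretches of the locus. Split into the 38 segment genes nearest the constant region, the middle 38 and the farthest 37, the nearest group held 23.1%, 26.96%, 27.9% and 30.0% of B gate Ighv UMIs, the middle 42.0%, 36.5%, 34.1% and 34.6%, and the farthest 34.9%, 36.5%, 38.0% and 35.3%. In plasma gate UMIs these shares varied more between libraries. Their middle group held 54.8%, 45.0%, 19.1% and 96.2%, and their farthest group 30.9%, 32.6%, 63.4% and 0.769%. Across the 113 segment genes, shares of B gate UMIs correlated between pairs of libraries with Pearson's r of 0.386 to 0.755, and shares of plasma gate UMIs with r of −0.032 to 0.341. These describe how alike the profiles are. Segments are not independent, and the B gate sums hold only 130 to 461 UMIs.

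Among single segments, Ighv1-26 was found in B gate cells of all 4 libraries, in 3.97%, 5.45%, 1.90% and 4.58% of cells at 1 UMI or more. Ighv1-15 was in 3.31%, 3.64%, 4.76% and 2.80%. Ighv9-3 was in 3.31%, 2.73%, 1.90% and 3.05%, and Ighv1-55 in 1.99%, 1.82%, 0.952% and 1.78%. Ighv6-3 was in 5.96% and 4.09% of GAL cells and 3.56% of those of WT replicate 2, and in none of the cells of WT replicate 1. Ighv3-6 was in 1.99%, 3.64%, 0.952% and 3.05%. Ighv10-3 was in 1.32%, 0.909%, 0% and 1.27%, and Ighv1-47 in 0%, 0.909%, 2.86% and 0%. Of the 113 segment genes, 90 were found in the B gate of some library and 37 in the B gate of all 4.

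**Figure D2:**
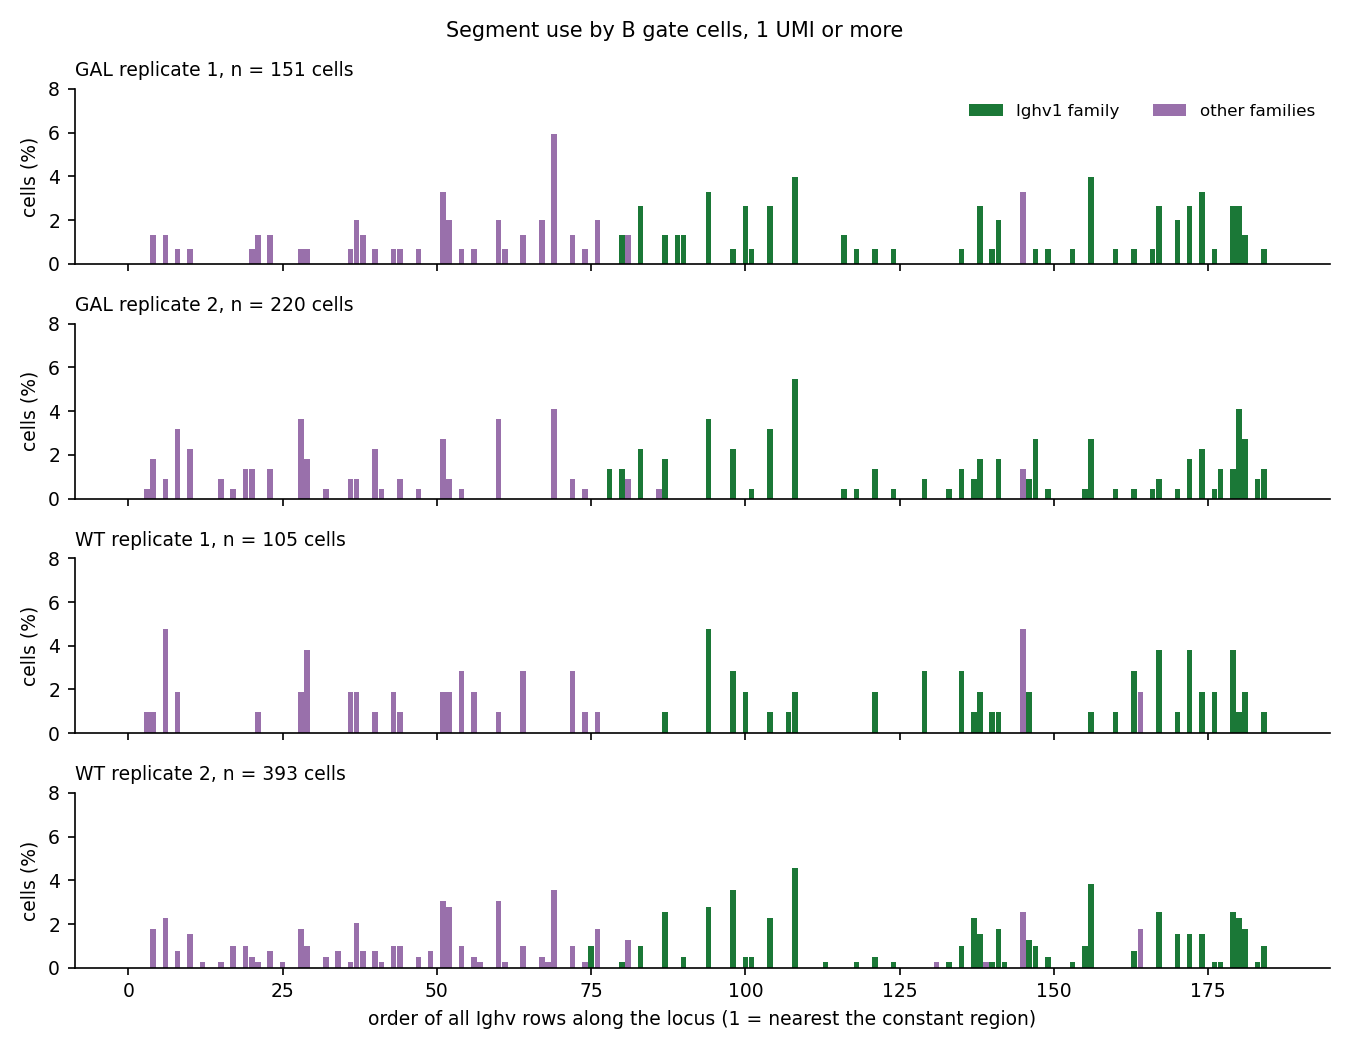
Percent of B gate cells with an assigned segment (1 UMI or more) that use each segment, in each library, against the order of the 185 Ighv rows from the constant region outwards; Ighv1 rows in green, other families in purple. Bars spread along the whole locus in every library and none exceeds 5.96%.

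In the plasma gate, single cells carried much of the Ighv RNA, and libraries were led by different segments. A segment (at least 5 UMIs) was assigned to 13, 55, 23 and 1 cells, which used 10, 31, 11 and 1 segments. In GAL replicate 1 the most used was Ighv1-64, with 3 of 13 cells (23.1%, exact 95% binomial interval 5.04% to 53.8%). In GAL replicate 2, Ighv6-3 and Ighv1-76 had 5 of 55 cells each (9.09%, 3.02% to 19.95%). In WT replicate 1, Ighv1-50 and Ighv1-80 had 5 of 23 each (21.7%, 7.46% to 43.7%). These intervals cover counting error only and treat cells of a library as independent. They were put on segments picked as leaders of the same cells, which the intervals do not allow for. The 1 assigned cell of WT replicate 2 used Ighv10-1. The effective number was 19.5, 35.4 and 9.73 in the first 3 libraries and cannot be given for 1 cell. It was 19.5, 36.5 and 10.4 with the removed cells, and no segment was repeated in WT replicate 2.

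Many plasma gate segments were seen in a single library. Of the 113 segment genes, 62 had a UMI in the plasma gate of some library, 33 of them in exactly 1 library and 1 in all 4. With the removed cells added back, 13, 72, 34 and 11 cells were assigned to 10, 34, 14 and 11 segments. The top shares were then 23.1% (Ighv1-64), 8.33% (Ighv6-3), 23.5% (Ighv1-50, 8 of 34 cells) and 9.09% (11 segments in a tie, 1 cell each). Over the kept cells, the mean top share differed between GAL and WT by −44.8 points (exact permutation p = 0.667), a value made by the single assigned cell of WT replicate 2, and by −0.605 points with the removed cells added.

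By UMIs, the leading share was above that by cells in all libraries but WT replicate 2. The leading segment held 23.9% (Ighv3-6), 21.2% (Ighv6-3), 36.1% (Ighv1-80) and 95.4% (Ighv10-1) of plasma gate Ighv UMIs. In GAL replicate 1 all 55 Ighv3-6 UMIs came from 1 IgA cell. In GAL replicate 2 a single IgG2b cell held 286 of the 357 Ighv6-3 UMIs. In WT replicate 1, 1 IgA cell held 92 of the 157 Ighv1-80 UMIs. In WT replicate 2, 1 IgA cell with a lambda light chain held all 124 Ighv10-1 UMIs. With the removed cells the leading shares were 23.7%, 20.1%, 28.5% and 38.2%.

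Cells differed widely in how much variable segment RNA they showed for their constant RNA. Over the 92 assigned kept cells, the median was 6.47 Ighv UMIs per 1000 heavy constant UMIs, from 1.68 to 121. The 4 assigned Ighv3-6 cells, 1 in GAL replicate 1 and 3 in GAL replicate 2, had a median of 37.4, from 9.72 to 105. The 6 Ighv1-50 cells had a median of 4.23, from 3.27 to 10.1, and the 6 Ighv1-64 cells a median of 4.94, from 2.18 to 15.6. The 2 Ighv10-1 cells had 17.5 and 49.9. Shares of UMIs and shares of cells are therefore given apart.

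Nearly all well-covered plasma gate cells showed 1 segment. Of 99 kept cells with at least 5 Ighv UMIs, 92 had at least 70% of them in 1 row. Among the exceptions, an IgA cell of GAL replicate 2 held 85 UMIs of the pseudogene Ighv1-2 and 58 of Ighv1-85. It carried 85 of the 87 Ighv1-2 UMIs of its library. Another IgA cell of that library held 27 UMIs of Ighv9-1 and 21 of Ighv5-12. These cells were singled out after their values were seen.

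**Figure D3:**
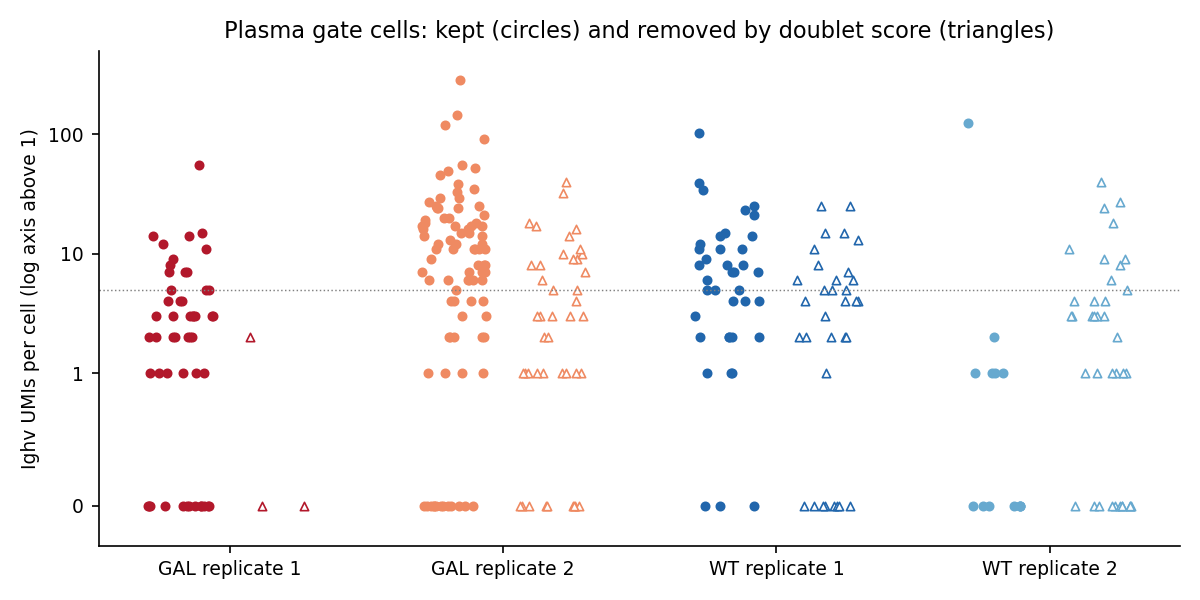
Ighv UMIs per plasma gate cell in each library, kept cells as circles and cells removed by doublet score as open triangles, on an axis that is logarithmic above 1, with the dotted line at the 5 UMIs needed to assign a segment. Single cells reach 287 in GAL replicate 2, 124 in WT replicate 2, 102 in WT replicate 1 and 55 in GAL replicate 1.

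IgA was the leading class. Among kept plasma gate cells whose heavy constant gene could be called from at least 10 UMIs, Igha led in 47 of 49, 63 of 83, 28 of 37 and 7 of 10. With the removed cells it led in 50 of 52, 81 of 123, 46 of 69 and 37 of 47. Ighg2c, an IgG gene, led in 13 of 83 kept cells of GAL replicate 2 (15.7%, exact 95% binomial interval 8.61% to 25.3%) and in 0 of 49, 1 of 37 and 0 of 10 cells of GAL replicate 1 and the WT replicates. Ighg2c led, once removed cells were added, in 18 of 123 cells of GAL replicate 2 (14.6%) and 5 of 69 of WT replicate 1 (7.25%, 2.39% to 16.1%), against 1 of 37 kept cells (2.70%) there, and in none of the other libraries. The 13 assigned IgA cells of GAL replicate 1 used 10 segments, and the 42 of GAL replicate 2 used 26. The 16 of WT replicate 1 used 8, and the 10 assigned Ighg2c cells of GAL replicate 2 used 9.

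Heavy and light segments recurred as pairs within libraries. The sequence of the junction was not read, so cells that share a pair may or may not descend from the same B cell. The pair needed at least 2 Ighv UMIs and a light segment with at least 2 UMIs and at least 50% of the light segment UMIs, which 30, 60, 32 and 2 kept plasma gate cells met. In WT replicate 1, 7 cells paired Ighv1-50 with Igkv1-110, a kappa light chain segment. These 7 were all the Ighv1-50 cells of that library, and 1 of its other 25 cells used Igkv1-110. They held 3 to 21 Ighv1-50 UMIs and 10 to 44 Igkv1-110 UMIs, and their heavy constant genes were Igha in 5, Ighg2b in 1 and Ighm in 1. In GAL replicate 1 the 1 Ighv1-50 cell did not use Igkv1-110, which 4 of the 29 other cells used. With the removed cells the pair reached 9 of the 10 Ighv1-50 cells of WT replicate 1.

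GAL replicate 2 had 3 pairs in 3 cells each. Ighv1-76 with Igkv8-30 was found in 3 IgA cells with 11 to 52 heavy segment UMIs. Ighv5-16 with Igkv8-21 was found in 3 IgA cells with 5 to 10. Ighv6-3 with Igkv1-133 was found in 3 IgG cells, 2 with Ighg2c and 1 with Ighg2b, with 10 to 286. That last pair includes the cell with the most Ighv UMIs of the series, and a removed cell with Ighm raised it to 4. With the removed cells, GAL replicate 2 also had 3 cells each with Ighv1-59 and Igkv5-48 (all removed cells), Ighv1-69 and Igkv17-127, and Ighv2-3 and Igkv4-59. WT replicate 1 then also had 3 cells each with Ighv1-15 and Igkv1-135, Ighv1-26 and Igkv12-46, and Ighv5-17 and Igkv3-4.

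Pairs seen in at least 2 cells took in 8 of 30 (26.7%), 21 of 60 (35.0%), 15 of 32 (46.9%) and 0 of 2 cells. With the removed cells the shares were 25.8%, 45.1%, 53.8% and 22.2%. Under both sets the groups overlapped. No p is given, because the share rises with the number of cells examined.

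**Figure D4:**
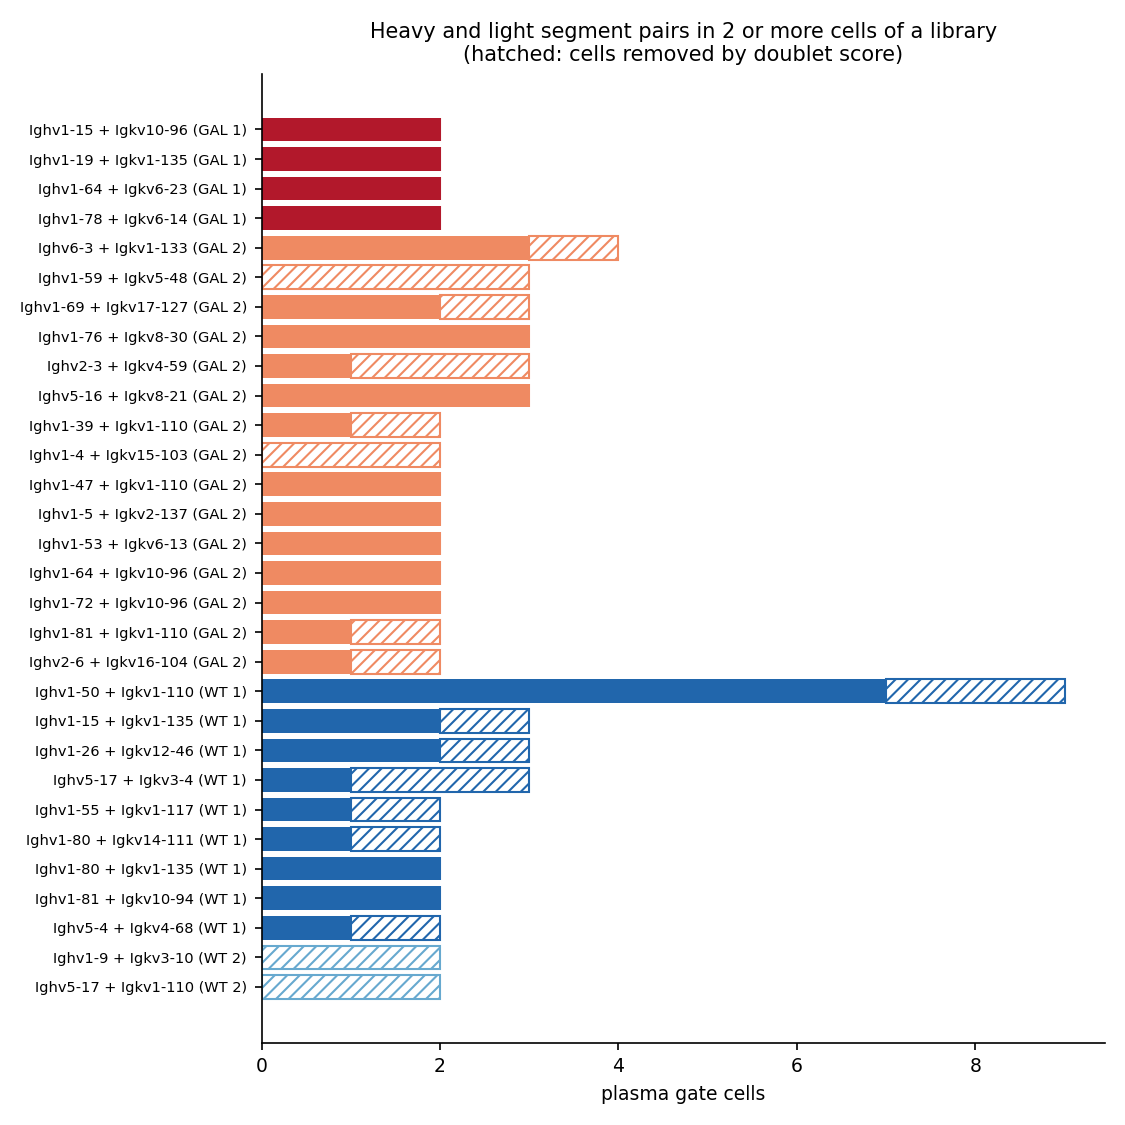
Heavy and light segment pairs found in 2 or more plasma gate cells of a library, as numbers of cells, filled for kept cells and hatched for cells removed by doublet score, coloured by library. Ighv1-50 with Igkv1-110 in WT 1 is the longest bar, at 7 kept and 2 removed cells, and no other pair exceeds 4.

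By edgeR, no Ighv row was called between GAL and WT over all 4 libraries with low counts filtered out. The quasi-likelihood test was used on counts summed per library, with Benjamini-Hochberg adjustment over all genes tested and a call at an adjusted p under 0.05. In the whole lung 0 of 16821 genes were called (0%), in the B gate 0 of 9930 (0%) and in the plasma gate 0 of 3850 (0%). At an unadjusted p under 0.05 there were 918 (5.46%), 173 (1.74%) and 76 (1.97%), and DESeq2 called 31 (0.184%), 3 (0.0302%) and 3 (0.0779%), of which 0, 0 and 2 were Ighv rows. Of the 185 Ighv rows, 31, 2 and 8 passed the filter on low counts. Of these, 13, 0 and 4 had an unadjusted p under 0.05, 11 higher and 2 lower in GAL in the whole lung, and 3 higher and 1 lower in the plasma gate. A segment passes the filter mainly through the libraries where it is high, so nothing is read from these counts. Scaled to library size, the groups did not overlap for 14 of the 31 Ighv rows tested in the whole lung, 12 higher and 2 lower in GAL. Over all genes tested there, they did not overlap for 38.1%, 20.1% higher and 18% lower. In the B gate this held for 1 of 2 Ighv rows and 26.5% of all genes (13.4% higher and 13.1% lower), and in the plasma gate for 4 of 8 and 28.4% (15% higher and 13.4% lower). Leaving out 1 library left an arm with 1 library, which is then assumed to vary like the other group. Without GAL replicate 1 edgeR called 20 of 17234 genes in the whole lung (0.116%), 2 of them among the 56 Ighv rows tested. Without GAL replicate 2 it called 660 of 17560 (3.76%), none of them among the 39 Ighv rows tested. Over the plasma gate with the removed cells added back, edgeR called 0 of 5406 genes (0%). Of the 14 Ighv rows tested there, 2 higher and 2 lower in GAL had an unadjusted p under 0.05. With no filter on low counts it called 62 of 14168 plasma gate genes (0.438%), 18 of them among the 65 Ighv rows tested.

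The segment with the smallest p in the whole lung was Ighv7-3, with 3, 2, 54 and 24 UMIs. Both WT libraries lay above both GAL libraries, with a log2 fold change of −4.01 ± 0.70 (n = 2 libraries a group, edgeR's quasi-likelihood test, unadjusted p = 0.002485, adjusted p = 0.768). Here and below the ± value is an SE derived from the fold change and the F statistic of that test, not a direct spread between libraries. Leaving out 1 library in turn gave log2 fold changes of −4.50 (without WT replicate 2) to −3.29 (without WT replicate 1). A single IgA cell gave 39 of the 54 UMIs of WT replicate 1, whereas 16 of the 24 of WT replicate 2 lay in B gate cells. Ighv1-80 had 8, 6, 188 and 19 UMIs, again higher in both WT libraries (log2 fold change −3.98 ± 1.23, adjusted p = 0.768). WT replicate 1 stood far above the others, and its largest cell gave 48.9% of its UMIs. The log2 fold change was −1.52 without it and −4.86 without WT replicate 2. Ighv1-50 had 13, 5, 103 and 5, high in WT replicate 1 alone. Its log2 fold change was −2.71 ± 1.40, and 0.71 without WT replicate 1.

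Of the segments with the smallest p that were higher in GAL, Ighv1-5 had 24, 67, 0 and 2 UMIs. As a share of all UMIs Ighv1-5 was higher in GAL by a ratio of 43.3 (exact 95% counting interval 11.6 to 363). Its adjusted p by edgeR's quasi-likelihood test was 0.768. Such an interval treats the pooled UMIs of a group as independent and does not allow for a segment picked by its p. In GAL replicate 1, 1 plasma gate cell gave 15 of the 24 UMIs, and in GAL replicate 2, 3 plasma gate cells gave 31 of the 67. Ighv9-1 had 12, 46, 0 and 2, a ratio of 27.6 (7.30 to 233), and 27 of the 46 came from the IgA cell with Ighv5-12. Ighv1-64 had 121, 103, 4 and 26 UMIs (log2 fold change 2.81 ± 0.80). It was spread over many cells in GAL replicate 1, where 81 of the 121 UMIs lay in 81 cells outside both gates and 14 of the 51 Ighv UMIs of T gate cells were of this segment. Ighv2-9-1 had 15, 39, 5 and 3 (2.68 ± 0.80), and Ighv3-6 had 59, 218, 7 and 23 (3.19 ± 0.96). Of Ighv3-6, 1 cell gave 93.2% of the UMIs of GAL replicate 1 and 1 cell 54.1% of those of GAL replicate 2. These 5 were taken for their small p in this direction, so that their groups did not overlap is no support. The adjusted p was 0.768 for each. Single libraries moved the sizes. Without WT replicate 2 the log2 fold change of Ighv1-64 was 4.64, that of Ighv3-6 4.24, that of Ighv1-5 8.54 and that of Ighv9-1 7.90, the last 2 against a WT count of 0, where the value depends on the prior count. Without WT replicate 1 they were 2.02, 2.58, 4.41 and 3.77. Without GAL replicate 2 the values were 1.73 for Ighv3-6, 1.63 for Ighv2-9-1 and 4.19 for Ighv1-5.

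Segments led by 1 cell showed how far a single cell moved a library. Ighv10-1 had 7, 28, 1 and 145 UMIs, of which 124 of the 145 in WT replicate 2 were 1 plasma gate cell. Its log2 fold change was −2.06 ± 1.76, and 0.65 without the cell with the most Ighv UMIs of each library. Ighv6-3 had 29, 407, 2 and 21, of which 286 in GAL replicate 2 were 1 cell. Ighv1-26, the B cell segment named above, had 40, 48, 67 and 32, with overlapping groups (−0.25 ± 0.52, unadjusted p = 0.645 by edgeR, and 0.39 without WT replicate 1).

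**Figure D5:**
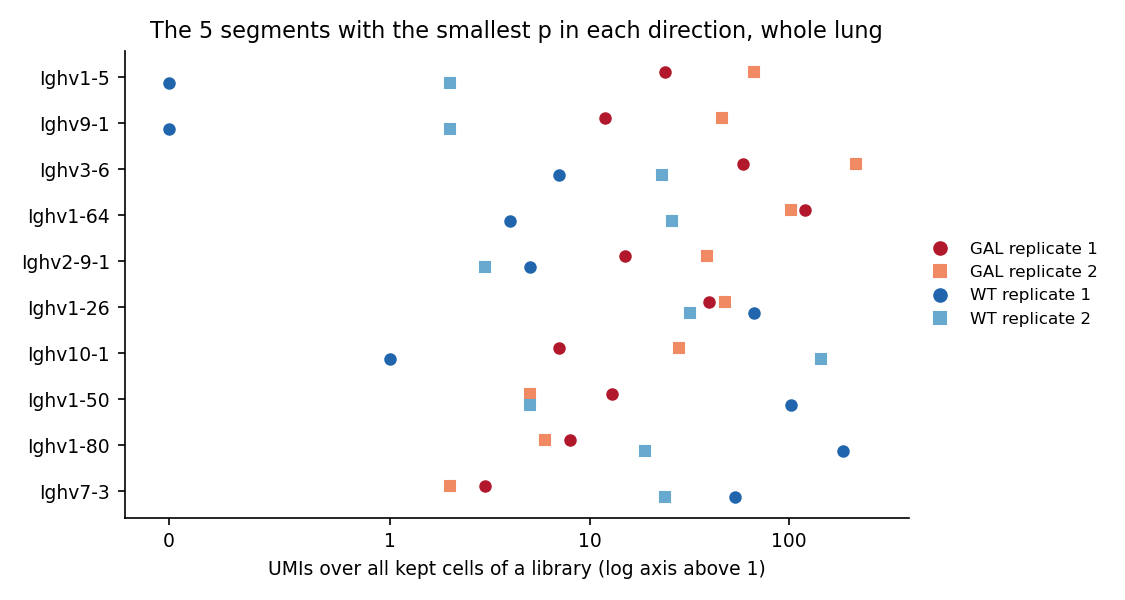
UMIs over all kept cells of each library, on an axis that is logarithmic above 1, for the 5 segments with the smallest p higher in GAL (top 5 rows) and lower in GAL (bottom 5). The rows were chosen by p, so separated groups are no support here; GAL and WT libraries overlap for Ighv1-26, Ighv10-1 and Ighv1-50.

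In the plasma gate, Ighv3-6 had 55, 165, 0 and 0 UMIs, in 1 and 4 GAL cells. It was at least 18.9-fold higher in GAL as a share of plasma gate UMIs, with 3 UMIs over the group as the limit that a count of 0 allows (edgeR's quasi-likelihood test, unadjusted p = 0.000662, adjusted p = 0.850). Ighv7-3 had 0, 0, 39 and 2, at least 53.1-fold higher in WT (unadjusted p = 0.0019, adjusted p = 0.999). All 39 UMIs of WT replicate 1 came from 1 cell, so the size of this difference rests mainly on that cell. Ighv1-64 had 33, 66, 0 and 1, a ratio of 25.5 (exact 95% counting interval 4.47 to 1017, adjusted p = 0.999). Ighv1-5 had 15, 31, 0 and 0, at least 3.95-fold higher in GAL (adjusted p = 0.999). All such intervals and limits cover counting error only, treat the UMIs of a group as independent and do not allow for segments picked by p. DESeq2 called Ighv3-6 and Ighv7-3, each at an adjusted p of 0.0127. Among the removed cells, 1 of WT replicate 2 held 40 Ighv3-6 UMIs, so the 0 of that library rested on which cells were kept. Ighv3-6 had 55, 168, 0 and 40 UMIs with the removed cells (log2 fold change 1.55, adjusted p = 0.999 by edgeR), and the WT libraries were no longer both at 0. Ighv1-64 then had 33, 66, 1 and 10, Ighv7-3 had 0, 0, 55 and 4, and Ighv1-5 had 15, 31, 0 and 0. Ighv10-1, with 1, 27, 0 and 124, and Ighv5-17, with 0, 76, 14 and 1, had overlapping groups, as did Ighv1-15 with 25, 30, 41 and 0 and Ighv1-72 with 0, 27, 12 and 0. The direction of these last 4 turned when 1 library was left out (WT replicate 2 for Ighv10-1, GAL replicate 2 for Ighv5-17, WT replicate 1 for Ighv1-15, and GAL replicate 1 or WT replicate 1 for Ighv1-72). Without GAL replicate 1, edgeR called 54 of 4106 genes of the plasma gate (1.32%), 15 of them among the 23 Ighv rows tested, with Ighv3-6, Ighv7-3, Ighv1-64 and Ighv10-1 among them. That fit had 1 GAL library, and its rows passed the filter mainly through libraries where they were high, so nothing is read from its calls. Beside the values above stand the unequal plasma gates, from 88 cells to 13, and the part of cell number in the differences was not tested.

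In the B gate only Ighv6-3 and Ighv1-26 passed the filter. Ighv6-3 had 11, 12, 0 and 18 UMIs (log2 fold change 0.88 ± 0.84, edgeR's quasi-likelihood test, adjusted p = 1.00), and Ighv1-26 had 6, 14, 3 and 21 (0.20 ± 0.65, adjusted p = 1.00). The latter was −0.43 without GAL replicate 2 and −0.21 without WT replicate 1. The former was 0.23 without WT replicate 1, and 6.41 without WT replicate 2, where WT is at 0 and the value depends on the prior count. As raw counts the groups overlapped for both segments. Scaled to library size they did not overlap for Ighv6-3, higher in GAL, as held for 13.4% of all genes tested in the B gate.

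The segments known from B-1 cells, an innate-like lineage whose antibodies against phosphatidylcholine use Ighv11-2 or Ighv12-3, had few UMIs. As a share, family Ighv11 was in 0.662%, 0%, 1.90% and 1.02% of B gate cells with a segment at 1 UMI or more. Ighv11-2 had 1, 0, 4 and 4 UMIs in kept cells, and Ighv12-3 had 0, 0, 0 and 2, where a count of 0 allows up to 3. A removed plasma gate cell of WT replicate 1 with Ighm as its constant gene held 4 Ighv11-2 UMIs and 49 of Igkv14-126, the light segment known as its partner in such antibodies. In the whole lung Igkv14-126 had 3, 3, 27 and 10 UMIs, higher in both WT libraries (log2 fold change −2.68 ± 0.76, adjusted p = 0.768). The list of 8 B-1 cell genes had 0 members at an unadjusted p under 0.05.

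The partner light chains and the other genes of the antibody pathway gave no call either. Of 163 Igkv and Iglv rows, 38 were tested in the whole lung, and 10 higher and 2 lower in GAL had an unadjusted p under 0.05, beside the 5.46% of all genes. Igkv5-43 had 69, 150, 0 and 5 UMIs and the lowest p among them (0.00541, adjusted p = 0.768, edgeR's quasi-likelihood test). Of 11 constant genes tested, Igkc, the kappa constant gene, was the 1 with an unadjusted p under 0.05. It had 207673, 454542, 139654 and 58714 UMIs (log2 fold change 1.69 ± 0.65 by edgeR's quasi-likelihood test, adjusted p = 0.768). Of the 8 secretion genes, Tnfrsf17, the receptor that keeps plasma cells alive, was the 1 with an unadjusted p under 0.05. It had 227, 206, 75 and 44 UMIs (1.76 ± 0.37 by edgeR's quasi-likelihood test, adjusted p = 0.768). Of 5 tested genes of recombination, mutation and switching, Apex1, a DNA repair enzyme, was lower in GAL with 1351, 1311, 1742 and 1657 UMIs (−0.44 ± 0.16 by edgeR's quasi-likelihood test, adjusted p = 0.768). No tested germinal centre (7), follicular (6) or memory B cell gene (4) had an unadjusted p under 0.05 in the whole lung. The median log2 fold changes of the 4 lists were −0.23, 0.27, −0.35 and −0.40, against 0.01 over all genes. In the plasma gate Ighm had 110, 154, 5838 and 30 UMIs, high in WT replicate 1 alone, the library in which 5 of 37 cells led with Ighm.

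Ighv RNA outside both gates was set beside that of the plasma and B gates of the same library. Across the 113 segment genes, Pearson's r between the shares outside and in the plasma gate was 0.570, 0.427, 0.622 and 0.351, and between the shares outside and in the B gate 0.455, 0.741, 0.445 and 0.670. This is a description of sparse counts, with 196 to 1295 UMIs outside the gates. Likeness to the gates of other libraries was not examined. B gate shares of different libraries correlated with r of 0.386 to 0.755, so these values do not show a likeness particular to a library. T gate cells of GAL replicate 2 held 149 Ighv UMIs in 140 cells, none with more than 2.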

How the data were processed

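Each library came as a matrix of whole UMI counts, genes by cell barcodes, as deposited by the authors. Tools named in the submitters' processing notes are fastp, STAR and Seurat, and the genome is GRCm38 (mm10). With which gene models reads were counted, and how reads of near copies were treated, is not stated in the labels. The lowest barcode held 500 UMIs in every library.

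Cells with at least 500 UMIs, 300 genes and at most 20% mitochondrial UMIs were kept. Scrublet (in scanpy 1.11.5) scored doublets; its automatic threshold marked 0.00823% to 5.94% of cells, so the highest scores were removed up to 0.8% per 1000 cells. Of the 4 markers of the B gate, 1 is not reported here. A segment was assigned to a cell at 2 UMIs in the B gate or 5 in the plasma gate, and 70% of the cell's Ighv UMIs. Sums per library were tested with edgeR 4.0.16 (filterByExpr, TMM) or DESeq2 1.42.0 as an alternative, in R 4.3.3. The edgeR fits were tested on simulated data with the median dispersion for all genes. Of 2-fold changes, 2.99% (whole lung), 41.8% (B gate) and 13.4% (plasma gate) were recovered. For 4-fold changes the shares were 86.6%, 95.5% and 53.7%. A common dispersion does not carry the spread of Ighv rows led by single cells. These shares therefore do not tell what size of Ighv change would have been called. Single values used exact permutation (scipy 1.17.1). Near copies were compared with edlib 1.3.9.post1 on GENCODE vM21 transcripts, which also gave the printed sequences.

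Named were the 8 segments with the highest mean share of assigned B gate cells, the 3 leading ones per plasma gate, those with 10% of a plasma gate's Ighv UMIs, the 5 with the smallest p per direction and fit, and Ighv1-5, Ighv1-80, Ighv11-2 and Ighv12-3, 22 in all. Other segments, named in ties, pairs or single cells, were singled out after their values were seen. Of other lists, constant genes and up to 4 genes with the smallest p were eligible. Members, lists and tests were chosen with earlier results of these data known.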

Additional observations from a re-analysis of the deposited data

Results flagged for a closer look

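The plasma gate cells that were removed by doublet score lay outside the main comparisons, and in 3 of the 4 libraries they held Ighv RNA above the 3 UMIs that a count of 0 allows. They held 2 and 257 Ighv UMIs in the GAL libraries (replicates 1 and 2) and 182 and 195 in the WT libraries. In WT replicate 2 this exceeded the 130 Ighv UMIs of its kept plasma gate cells. The 38 removed cells with an assigned segment had a median of 6.48 Ighv UMIs per 1000 heavy constant UMIs, and the 92 kept ones 6.47. Only cells with at least 5 UMIs of a segment enter these medians, so their likeness is partly set by that rule. Over all plasma gate cells the median was 3 Ighv UMIs in the 116 removed ones and 5 in the 191 kept ones. Whether single removed cells are doublets was not tested.

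A cell of GAL replicate 2 outside both gates held 64 Ighv UMIs, all of Ighv1-82. It had 129 Jchain and 8 Mzb1 UMIs but none of the other plasma cell markers of the gate, and 746 Ighg2c and 1539 Igkc UMIs in 4960.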

How the results depend on the processing

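Differences are GAL minus WT. In B gate cells the effective number of segments turned to −1.41, the top segment share to 1.04 points and the Ighv1 share to 5.02 points with segments assigned at 1 UMI. At 3 UMIs the top share turned to 25.0 and the Ighv1 share to 12.5, on 13 cells in all, and the effective number could not be computed. The Ighv1 share turned to 9.43 with 3 of 4 B cell markers. Ighv10-1 in the whole lung turned to 0.65 without the cell with the most Ighv UMIs of each library. The 0 called genes became 31 (whole lung), 3 (B gate) and 3 (plasma gate) with DESeq2, 80 (B gate) and 62 (plasma gate) with no filter on low counts, and 2 (B gate) with 3 of 4 markers. Without that filter 18 of 65 Ighv rows tested were called in the plasma gate, beside 0.438% of all genes. The causes were not tested.

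Leaving out 1 library in turn gave 0.0833 to 67.1 for the effective number in B gate cells, −13.3 to 2.14 for their top share and −14.3 to −1.01 for their Ighv1 share. In plasma gate cells it gave 9.77 to 25.6 for the effective number, which could not be computed without WT replicate 1, and −83.9 to −5.66 for the top share. The Ighv share of UMIs ran from −0.00124% to 0.00173% in the B gate and from −0.0852% to 0.00688% in the plasma gate. Called genes numbered 0 to 660 in the whole lung, 4 to 103 in the B gate and 0 to 54 in the plasma gate. The log2 fold changes of single segments ran from −1.78 to 7.35 (Ighv1-15), −1.18 to 6.16 (Ighv1-72), −7.93 to 6.36 (Ighv10-1) and −6.36 to 2.42 (Ighv5-17) in the plasma gate, where a group at 0 makes them depend on the prior count. In the whole lung they ran from −0.71 to 0.39 (Ighv1-26), −3.66 to 0.71 (Ighv1-50) and −3.58 to 3.93 (Ighv10-1), and in the B gate from −0.43 to 1.24 (Ighv1-26) and 0.23 to 6.41 (Ighv6-3). Of the other alternatives, 42 values of the main comparisons and 104 of single segments kept their direction and side of the threshold. A plasma gate with at least 5% constant UMIs was chosen after seeing the data.

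No paired analysis was possible because the labels name no pairs and the replicate numbers follow accession order. Depth limits these values: 8 to 42 B gate cells per library and 1 to 55 plasma gate cells had an assigned segment, and most Ighv rows had too few counts to test.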
